A study of Mus musculus with 6 samples.

Results

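ATP-sensitive potassium channels of the mouse embryo's cardiac outflow tract were followed through the 4 genes that encode their subunits, Abcc8, Abcc9, Kcnj8 and Kcnj11. The outflow tract is the muscular tube by which blood leaves the early heart. All probe sets, the groups of short oligonucleotides that together measure a transcript, whose platform annotation names a member gene and no other gene were taken. This gave 8 of the 45037 probe sets on the array other than controls, and 4 of the 18193 genes that have a probe set of their own. The group was chosen by a measured value, the superior against inferior difference of Abcc9 in these same arrays. Every superior against inferior value of a member below is therefore a description and not a test.

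The arrays came from CD1 embryos at embryonic day 10.5, whose outflow tract was cut into a superior and an inferior subdomain. Total RNA of pooled pieces was measured in 3 superior and 3 inferior pools, numbered 1, 6 and 7 in both regions, with no treatment and no altered gene. The sample labels give 6 littermate embryos per pool, the series text gives 7 dissected pieces of each domain, and separate litters are stated by neither. The spread given here is therefore the spread between these pools, which may be technical. A pool is whole tissue, in which fewer cells of a type and less RNA per cell cannot be told apart. Signals are linear array intensities on which each array has the same trimmed mean, and a signal above 8.0, the highest of 27 bacterial control probe sets, is called above background. The median signal of an array lay between 13.9 and 17.6, and all 10 listed genes of heart muscle had a probe set above background on at least 1 array.

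These channels join a pore to a regulatory subunit. The pore is made of the inward rectifier Kir6.1, encoded by Kcnj8, or Kir6.2, encoded by Kcnj11. The Kir6.2 pore is closed by ATP. The regulatory subunit is a sulfonylurea receptor of the ABC transporter family, SUR1 from Abcc8 or SUR2 from Abcc9, which senses magnesium nucleotides and binds sulfonylurea drugs and channel openers. SUR2 with Kir6.2 is known from adult ventricular muscle, SUR2 with Kir6.1 from vascular smooth muscle and pericytes, and SUR1 with Kir6.2 from pancreatic beta cells and neurons. In the RefSeq gene table of assembly GRCm38.p6, Kcnj8 lies next to Abcc9 on chromosome 6 and Kcnj11 next to Abcc8 on chromosome 7, with 0 annotated genes between the members of each pair.

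The promoters of Abcc9 and Kcnj8 are shown because these neighbouring genes encode partners of a channel. The regions of the arrays were apart for the brightest Abcc9 probe set and overlapped for Kcnj8, whose signal was near background. A difference between the genes was not tested. RefSeq promoter windows matched 2 of the 4 members, both on the minus strand of GRCm38.p6. The windows printed run from 250 bases before the transcript start that the table uses to 20 bases from it, at chr6:142702255-142702524 for Abcc9 and chr6:142571595-142571864 for Kcnj8. Capitals mark matches to the motifs searched.
Abcc9: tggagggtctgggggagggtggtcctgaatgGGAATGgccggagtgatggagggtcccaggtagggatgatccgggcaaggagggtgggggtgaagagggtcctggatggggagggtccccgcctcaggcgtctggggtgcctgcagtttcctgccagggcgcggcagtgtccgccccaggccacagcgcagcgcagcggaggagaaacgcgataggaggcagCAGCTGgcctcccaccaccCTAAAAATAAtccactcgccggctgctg
Kcnj8: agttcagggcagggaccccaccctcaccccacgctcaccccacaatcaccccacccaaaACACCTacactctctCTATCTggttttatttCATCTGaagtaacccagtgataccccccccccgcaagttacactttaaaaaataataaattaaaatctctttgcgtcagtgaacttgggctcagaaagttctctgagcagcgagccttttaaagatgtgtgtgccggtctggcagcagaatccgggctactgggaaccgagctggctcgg

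Motifs of heart and mesothelial transcription factors were searched on both strands, and they were chosen after the windows had been read. The Abcc9 window held a MEF2 motif, CTAAAAATAA, from position -8 to position 2 around the start, a TEAD motif GGAATG at -219 to -214 and an E-box CANNTG at -27 to -22. Of 32851 windows of the same length, 3.02% held the MEF2 motif, 13.5% the TEAD motif and 68.9% an E-box. The Kcnj8 window held no MEF2 or TEAD match. It held an E-box at -160 to -155, a GATA motif AGATAN (27.8% of windows) at -176 to -171, and a T-box motif AGGTGT (12.6%) at -191 to -186, the last 2 on the opposite strand. The SRF CArG box, present in 1.53% of windows, was in neither. No motif here overlapped another. The window of Abcc9 was 66.7% G and C and that of Kcnj8 50.7%, against a median of 52.6% over all windows. A match describes letters only and is not a site of binding.

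Abcc9, the SUR2 receptor, was the member that was higher in superior tissue. For its brightest probe set, 1435752_s_at, the superior signals were 159.6, 47.3 and 90.4 in pools 1, 6 and 7. The inferior signals were 28.4, 22.4 and 23.9 in the same order. All 6 lay above background, and the lowest superior pool was above the highest inferior pool. The superior mean was 99.1 ± 56.7 and the inferior mean 24.9 ± 3.12 (SD, n = 3 each). Almost all of the spread was in the superior pools, where the SD on the log2 scale was 0.85 against 0.16 in the inferior pools.

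On log2(signal + 3.2), the scale of all log2 values here, the difference of this Abcc9 probe set was 2.37, 0.98 and 1.79 in pools 1, 6 and 7. Its mean of 1.71 ± 0.24 (SE of the paired limma fit) corresponds to a 3.27-fold higher value of signal + 3.2. The SEs of this fit draw on the variance of other probe sets and are not the spread of the pool differences. For this probe set the SD of the pool differences was 0.70. The probe set stood 10th from the top among the 22518 tested probe sets. With the pool number in the limma fit, it was the 1 member of the 2 tested to pass, at an adjusted p of 0.0484. In that fit 0.16% of tested probe sets passed in either direction and 0.0933% as higher in superior. Because this contrast led to the choice of the gene, nothing is read from the call.

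The call also stood at the edge of the threshold. Without the pool number in the fit the limma adjusted p was 1.00 (unadjusted p = 0.00261), and 0 of 22518 probe sets passed (792 at an unadjusted p under 0.05). Leaving out pool 1 lowered the difference to 1.38 (limma adjusted p = 0.119), and leaving out pool 7 gave 1.67 (0.0875), so that either ended the call. Without pool 6 it was 2.08 (limma adjusted p = 0.00142). Scaling by the 75th percentile or quantile normalization kept it, at 0.0373 and 0.0459.

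The other Abcc9 probe sets were too dim to be tested, that is, their mean log2 value lay at or below the median of all probe sets, a signal of about 15.1. Probe set 1420408_a_at had superior signals of 22.6, 5.9 and 20.7 in pools 1, 6 and 7 and inferior signals of 0.2, 5.4 and 2.8. It was above background in superior pools 1 and 7 and in no other array. Probe set 1435751_at had superior signals of 22, 4.7 and 16 and inferior signals of 2.2, 7.3 and 1.7. It too was above background in superior pools 1 and 7 alone.

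Superior pools 1 and 7 were thus the high arrays for each of the 3 Abcc9 probe sets, and superior pool 6 was the lowest superior array for each. In pool 6 both dim probe sets were below background in either region, so they give no order there. With the background level of 8.0 in place of the dimmer inferior signals, the mean over pools of signal + 3.2, taken on the log2 scale, was 1.59-fold higher in superior tissue by 1420408_a_at. By 1435751_at it was 1.40-fold higher. The superior pool 6 signals, themselves below background, were kept as measured, so these values set no lower bound for pool 6. Over the 6 arrays, the log2 values of the brightest probe set had a Pearson correlation of 0.87 with those of each dim probe set (Spearman 0.77 and 0.66). The dim probe sets correlated with each other at 0.95 (Spearman 0.89). These correlations are descriptions over 6 arrays that come from 3 pools and include the region difference itself. The suffix of 1435752_s_at marks probes that can match more than 1 transcript, and the annotation does not say which form of SUR2 a probe set reads.

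**Figure D1:**
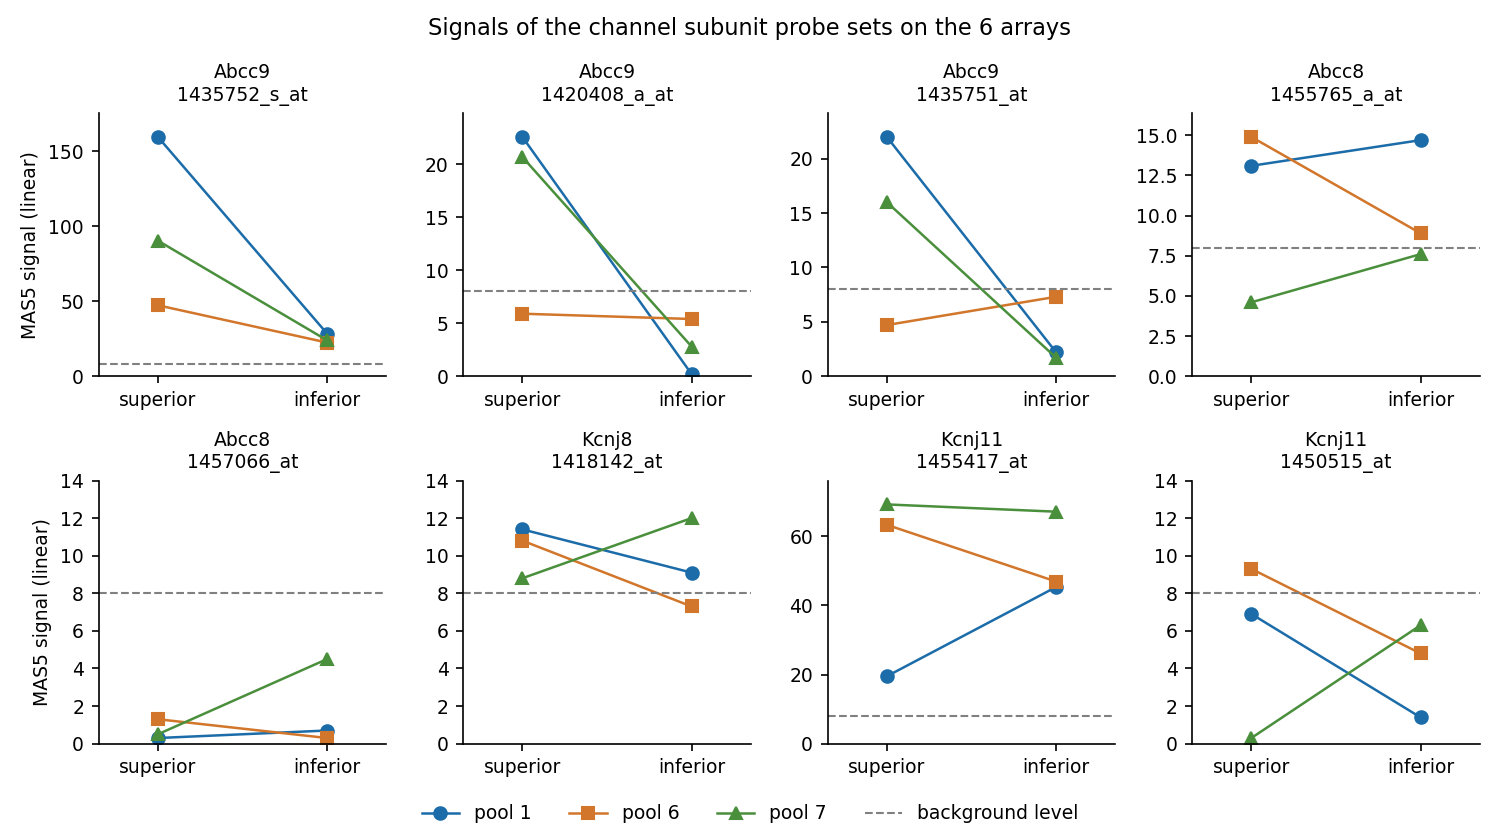
Linear MAS5 signal (vertical axes, separate scales starting at 0) of the 8 probe sets of the channel subunits in superior and inferior tissue. Lines join the regions of a pool, and the dashed line is the background level of 8.0. Abcc9 probe set 1435752_s_at was higher in superior tissue in each pool, from 47.3 to 159.6 against 22.4 to 28.4. The regions overlap for Abcc9 probe set 1435751_at and for the probe sets of Kcnj8, Kcnj11 and Abcc8.

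Kcnj8, the Kir6.1 pore and neighbour of Abcc9, showed no such separation. Its single probe set, 1418142_at, had superior signals of 11.4, 10.8 and 8.8 and inferior signals of 9.1, 7.3 and 12.0 in pools 1, 6 and 7. The regions overlapped, with superior higher in pools 1 and 6 and lower in pool 7. The means were 10.3 ± 1.36 and 9.47 ± 2.37 (SD, n = 3 each), a log2 difference of 0.11 ± 0.28 (SE, fit without the filter on dim probe sets). Of the 6 signals 5 were above background, with 12.0 the highest, and a regional difference may not be detectable at such a signal. In superior pool 1, where Abcc9 was at its highest, Kcnj8 was at 11.4, and in inferior pool 7, where Abcc9 was at 23.9, it was at 12.0.

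Kcnj11, the Kir6.2 pore, was measured above background on all 6 arrays by probe set 1455417_at. Superior signals were 19.5, 63.3 and 69.2 and inferior signals 45.3, 46.9 and 67.1 in pools 1, 6 and 7. The lowest and the highest array were both superior, so the regions overlapped completely. The means were 50.7 ± 27.2 and 53.1 ± 12.2 (SD, n = 3 each), and the log2 differences were -1.10, 0.41 and 0.04 in pools 1, 6 and 7. Their mean was -0.21 ± 0.26 (SE of the paired limma fit), and their SD was 0.78. Leaving out pool 1 turned the mean to 0.23. The low superior pool 1 value thus set the sign.

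That array, superior pool 1, was also the one with the highest Abcc9 signal. Over the 6 arrays the correlation of Kcnj11 with the brightest Abcc9 probe set was -0.55 by Pearson and -0.14 by Spearman, a description with few points. The second Kcnj11 probe set, 1450515_at, was above background on 1 array, superior pool 6 at 9.3. Its other superior signals were 6.9 and 0.3, and its inferior signals 1.4, 4.8 and 6.3, which give no order between regions.

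Abcc8, the SUR1 receptor of beta cells and neurons, was near or below background. Probe set 1455765_a_at had superior signals of 13.1, 14.9 and 4.6 and inferior signals of 14.7, 8.9 and 7.6 in pools 1, 6 and 7. Both regions had 2 of 3 arrays above background, and both pool 7 arrays were below it. The means were 10.9 ± 5.50 and 10.4 ± 3.78 (SD, n = 3 each). Probe set 1457066_at was above background on 0 arrays, with signals from 0.3 to 4.5. Beside it stand the listed genes of endocrine and neuronal cells, in which SUR1 is known. Of these, Chgb and Pcsk1 were not above background on any array, Chga was above it on 1 array and Ins2 on 3. Scg5, Syt1, Snap25, Tubb3, Elavl3 and Stmn2 were above it on all 6 arrays. Snap25, a synaptic vesicle fusion protein, had signals of 41.1 to 48.6 in superior and 51.8 to 70.4 in inferior pools (log2 -0.39 ± 0.14, limma adjusted p = 0.397).

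Across the 8 probe sets, 2 were tested and 6 were too dim, so the members that passed the filter do not stand for all. The superior values all lay above the inferior values for 2 of 8 members, both of Abcc9, where this held for 3.9% of all 45037 probe sets. As Abcc9 led to the choice of the group and 1 of the 2 lies below background in inferior tissue, nothing is read from this share. The median log2 difference over the 8 members was 0.11, against -0.03 over all 45037 probe sets. Of the 4 genes, Abcc9 was the 1 with a probe set above background on every array whose regions did not overlap.

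Markers of the cell types that a cut of this tissue can hold were set beside Abcc9. Of chamber myocardium genes, which mark working heart muscle, 8 of 8 tested were higher in the superior region. Their median log2 difference was 0.52, against -0.02 over all tested probe sets. The summed signal of the 9 measured genes was 13025 to 15491 in superior and 10284 to 12082 in inferior pools. Of these genes 1 passed the paired limma test, Irx4, a homeobox factor of ventricular muscle. Its superior signals were 89.6, 33.8 and 58.7 and its inferior signals 11.2, 10.4 and 11 in pools 1, 6 and 7 (log2 2.09 ± 0.24, limma adjusted p = 0.0294). Superior pool 1 was highest and superior pool 6 lowest, the order also seen for Abcc9.

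Nppa, the atrial natriuretic peptide of chamber muscle, had superior signals of 147.4, 45.9 and 295.4 and inferior signals of 29.3, 16 and 30.4. Its lowest superior pool was also pool 6, while its highest was pool 7 (log2 2.24 ± 0.30, limma adjusted p = 0.0622). Myl2, the ventricular myosin light chain and the brightest of the list, ran the other way among superior pools, with 7154 in pool 6 against 5413 and 5571 in pools 1 and 7 (log2 0.48 ± 0.11, limma adjusted p = 0.234). Myl3 and Hey2 were also highest in superior pool 6, while Nppb, Cited1 and Smpx were highest in superior pool 1. Nppb and Cited1 were lowest in superior pool 6, so they too had the order of Irx4 and Abcc9. The order was not tested. Gja5, a gap junction protein of atrial and conducting muscle, was not above background on any array. General heart muscle genes had a median difference of 0.21, with 8 of 10 higher, 0 passing limma's adjusted threshold (4 at an unadjusted p under 0.05), and summed signals of 35112 to 39836 against 31770 to 32510. Under quantile normalization that median was 0.02. In this list Tnnc1, a troponin, was at 0.29 ± 0.11 (limma adjusted p = 0.426), the atrial light chain Myl4 at 0.28 ± 0.10 (0.395) and Myh7, the brightest, a myosin heavy chain, at 0.18 ± 0.09 (0.518).

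Epicardial genes, of the cell layer that covers the heart, were higher in 9 of 9 tested cases, with a median of 1.06 and summed signals of 1159 to 2009 in superior and 721.9 to 976.2 in inferior pools. In the paired limma fit 4 of the 9 passed, which is a known result of these arrays and no independent support. They were Tbx18, Tcf21, Upk1b and Aldh1a2, and Msln, a mesothelial surface protein, was not above background. Tbx18, a T-box factor, had superior signals of 311.6, 426.0 and 179.8 in pools 1, 6 and 7. Its highest superior array was thus pool 6, where Abcc9 was lowest. Aldh1a2, an enzyme of retinoic acid synthesis, was also highest in superior pool 6, at 140.6 against 100.2 and 48.2, and so was Tcf21, a factor of epicardial progenitors, at 461.6. Upk1b, a uroplakin of mesothelium, was highest in superior pool 1, at 122.3 against 76.9 and 59.2. Of the tested genes that did not pass, Wt1, Upk3b and Krt19 were also highest in superior pool 1, and Sema3d and Lrrn4 in superior pool 6. The list thus had no single order of pools, and the order was not tested.

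Both lists moved with Abcc9 between regions, and their part in the Abcc9 difference was not tested. Without the pool number in the limma fit, 0 genes of either list passed, and 8 of the epicardial and 5 of the chamber genes had an unadjusted p under 0.05. The paired differences of the epicardial genes were 1.86 ± 0.12 for Tbx18 (limma adjusted p = 0.0026), 1.84 ± 0.23 for Upk1b (0.0411), 1.5 ± 0.19 for Aldh1a2 (0.0411) and 0.69 ± 0.09 for Tcf21 (0.0479). Without pool 1, Tbx18 kept its call at 1.89 (limma adjusted p = 0.00181). The others lost it with differences of like size, Irx4 at 1.78 (0.0544), Upk1b at 1.79 (0.125), Aldh1a2 at 1.39 (0.110) and Tcf21 at 0.74 (0.226). Of these 5 genes Tbx18 alone passed without the filter on dim probe sets (limma adjusted p = 0.0274), and 0 passed without trend and robust variance (Tbx18 0.0948).

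In pericytes, a mural cell type, and in smooth muscle SUR2 and Kir6.1 are known together. Of 9 tested genes of mural cells 3 were higher and 6 lower in superior pools, 0 passing in limma (2 at an unadjusted p under 0.05), with a median of -0.21. That median was -0.30 without pool 1, -0.07 without pool 6 and -0.06 without pool 7. Their summed signals overlapped, at 2756 to 3256 in superior and 2719 to 3583 in inferior pools. Cspg4, the NG2 proteoglycan of pericytes, had superior signals of 132.9, 193.5 and 160.9 and inferior signals of 199.7, 237.3 and 205.5 (log2 -0.40 ± 0.11, limma adjusted p = 0.272). Notch3, a receptor of mural cells, was at -0.36 ± 0.10 (0.283) and Rgs5, the brightest of the list, at -0.05 ± 0.15 (0.940). Higd1b and Ndufa4l2 were not above background on any array. Smooth muscle genes were split 4 to 4, with 0 passing (2 unadjusted), a median of -0.08 and sums of 9570 to 11573 against 8919 to 9658. In this list Actg2 was at 0.59 ± 0.15 (limma adjusted p = 0.263), Smtn at -0.33 ± 0.22 (0.622) and Acta2, the brightest, at 0.21 ± 0.09 (0.456). Myh11, of the same list, was too dim to be tested and was above background on 3 of the 6 arrays. Its signals in pools 1, 6 and 7 were 8, 9.4 and 10.7 in superior and 0.7, 11.6 and 3.9 in inferior tissue. The smooth muscle median was 0.17 in the top 25% of probe sets by signal and 0.10 without the filter, and it was 0.02 without pool 1 and 0.12 without pool 6.

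**Figure D2:**
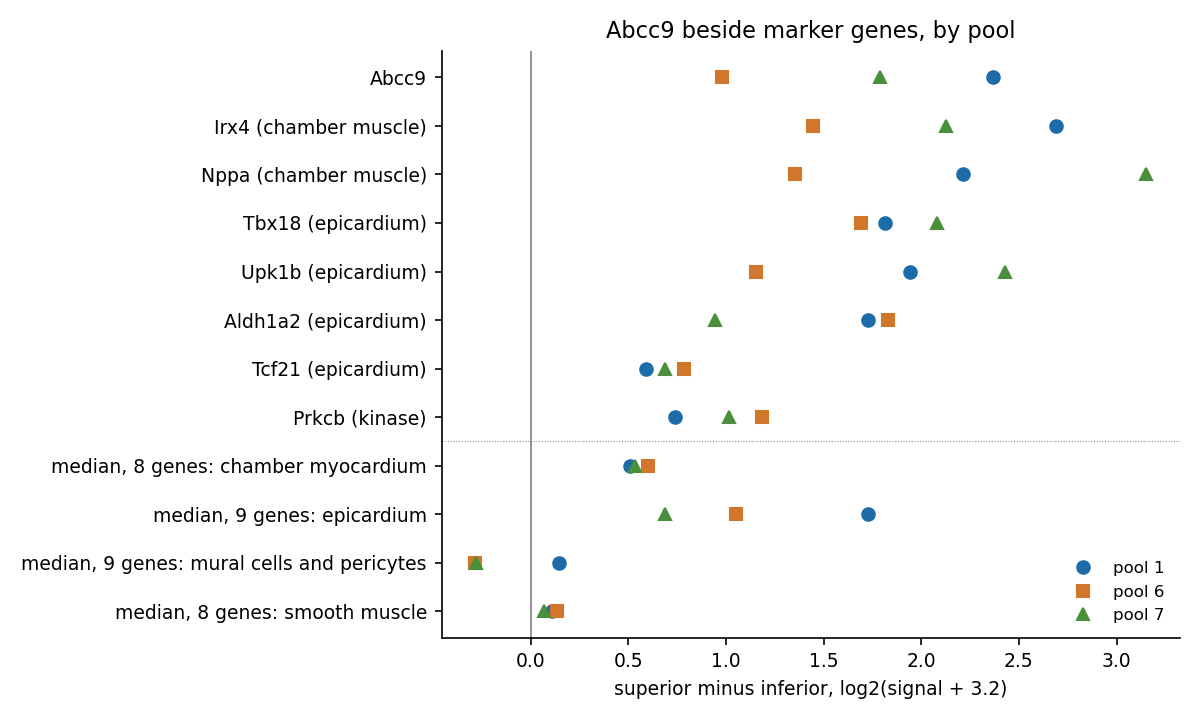
Superior minus inferior difference in log2(signal + 3.2) within pools 1, 6 and 7 for Abcc9 probe set 1435752_s_at, 7 other genes, and the medians of marker lists below the dotted line. Of the genes drawn, Abcc9 and Irx4 share the order of pools, pool 6 lowest (0.98 and 1.44) and pool 1 highest (2.37 and 2.69). The medians in pools 1, 6 and 7 are 0.14, -0.28 and -0.28 for mural genes and 0.11, 0.14 and 0.07 for smooth muscle genes. The smooth muscle median of -0.08 in the text is taken over each gene's mean difference, so its sign differs from these.

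The genes with the profile most like that of Abcc9 were ranked by Pearson correlation of log2 values with probe set 1435752_s_at over the 6 arrays. Of 19604 tested probe sets naming another gene, 188, or 0.959%, had a correlation above 0.9. The ranks rest on 6 points from 3 pools. The 10 highest were probe sets of Gmps, Lrr1, Pomp, Erg28, Add3, Irx4, Cenpf, E2f8, Dmap1 and Lamtor1, with correlations from 0.98 to 0.99. Their region differences were small except for Irx4: Add3, a membrane skeleton adducin, differed by 0.61 ± 0.11, E2f8, a cell cycle repressor, by 0.38 ± 0.11, and Lamtor1, a lysosomal signalling scaffold, by 0.11 ± 0.09. Among these 10, Irx4 was the 1 that passed the paired limma test, and its difference of 2.09 lay nearest to the 1.71 of Abcc9. As the inferior signals of Irx4 lay below the filter level, nothing is read from that call.

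**Figure D3:**
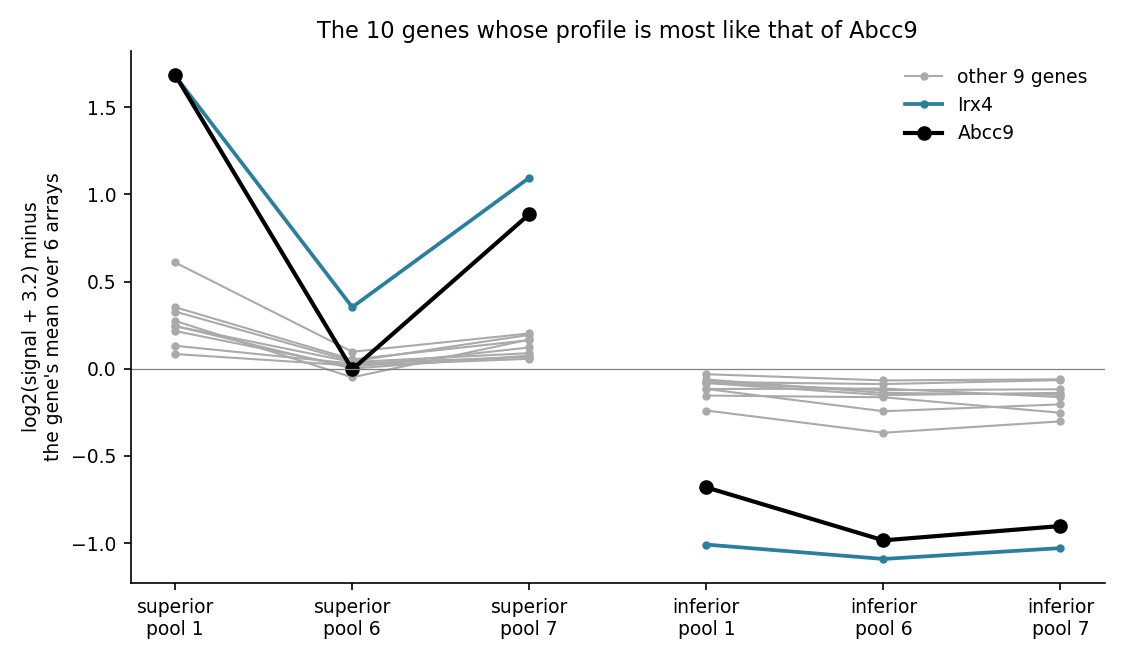
Log2(signal + 3.2) on each array minus the gene's own mean over the 6 arrays, for Abcc9 (black), Irx4 (blue) and the other 9 genes of the 10 most like Abcc9 (grey). Superior pool 1 is the highest and pool 6 the lowest superior array for each, which the choice favours, and the height of the step between regions is 1.71 for Abcc9, 2.09 for Irx4 and at most 0.61 for the others.

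Genes that relate to the channel were then read from 6 lists: other inward rectifiers, other ABCC transporters, nucleotide and glycolytic enzymes, anchors and trafficking partners, kinases and upstream signals, and other cardiac channels. Of 73 genes 68 had a probe set used here and 47 were tested. In the paired limma fit 1 of the 47 passed, Prkcb, where 0.16% of all tested probe sets passed. Without the pool number limma passed 0, and 4 had an unadjusted p under 0.05. The 46 others had log2 differences from -0.50 to 0.35, and the median of the 47 was 0.04.

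Other inward rectifier pores were mostly dim, with 3 of 13 tested and 6 not above background on any array. Kcnj5, a pore of the cardiac acetylcholine-gated potassium channel, had superior signals of 109.9, 92.1 and 85.5 and inferior signals of 117.3, 91.6 and 72.8 (log2 0.05 ± 0.12, limma adjusted p = 0.927). Its regions overlapped. Kcnj12, a pore of the strong inward rectifier current, was at -0.19 ± 0.22 (0.796) and Kcnj15 at 0.14 ± 0.19 (0.834). Of the other ABCC transporters 4 of 9 were tested, 1 higher and 3 lower, with a median of -0.10. Abcc4, an exporter of cyclic nucleotides, was at -0.26 ± 0.20 (limma adjusted p = 0.681), Abcc1, a glutathione conjugate exporter, at -0.17 ± 0.14 (0.692), and Abcc5, the brightest tested, at 0.16 ± 0.34 (0.904). The difference of Abcc9 lay beyond the range of these tested family members. As Abcc9 was chosen for its difference and they were not, nothing is read from this, and no test was made.

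Enzymes of nucleotide exchange and of glycolysis were higher in 8 of 10 tested cases. The median of the 10 was 0.13, with 0 passing in limma and 2 at an unadjusted p under 0.05. The 2 lower genes were Ak1 at -0.15 ± 0.09 (limma adjusted p = 0.589) and Ckb at -0.11 ± 0.11 (0.747). Ldha, lactate dehydrogenase, had a difference of 0.22 ± 0.09 (limma adjusted p = 0.434) and Tpi1, triosephosphate isomerase, 0.23 ± 0.09 (0.416). Under quantile normalization the median of this list was 0.01. Anchors and trafficking partners had 8 of 12 genes higher, 0 passing (1 unadjusted) and a median of 0.03. The lowest of them was Eps8, an actin regulator, at -0.50 ± 0.19 (0.417), followed in size by Usp2, a ubiquitin protease, at 0.24 ± 0.11 (0.486). The brightest, Ywhae, a 14-3-3 protein, was at 0.19 ± 0.09 (0.475).

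Kinases and signals that act on these channels had 5 of 11 tested genes higher and a median of -0.05. Prkcb, a protein kinase C, had superior signals of 163.1, 184.5 and 98.8 and inferior signals of 96.5, 79.3 and 47.2 in pools 1, 6 and 7 for probe set 1460419_a_at. The lowest superior signal, in pool 7, lay just above the highest inferior signal, in pool 1. Its difference was 0.98 ± 0.13 (limma adjusted p = 0.0417), and without pool 1 it was 1.1, no longer passing (0.0664). The call was also lost without the filter (limma adjusted p = 0.184), in the top 25% of probe sets by signal (0.111) and without trend and robust variance (0.202). A dimmer Prkcb probe set gave 0.57 ± 0.19 (0.376). Prkca was at -0.22 ± 0.13 (0.566) and Prkar1a, the brightest, at 0.00 ± 0.09 (0.996). The list of other cardiac channels had 3 of 7 tested genes higher, 0 passing (2 unadjusted) and a median of -0.02. Its largest differences were those of Cacna1h, a T-type calcium channel, at -0.35 ± 0.12 (0.371), and Kcnk3, a background potassium channel, at 0.35 ± 0.13 (0.411).

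**Figure D4:**
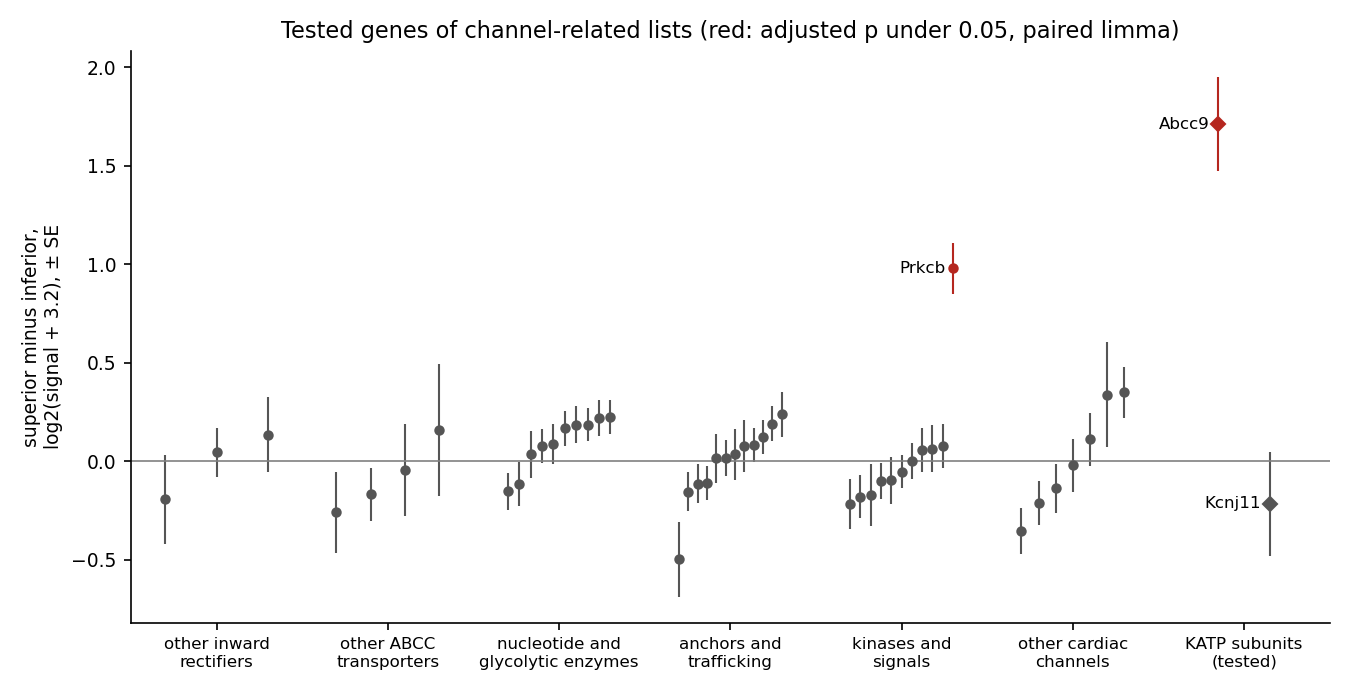
Superior minus inferior difference in log2(signal + 3.2), with the SE of the paired limma fit, for the tested genes of the 6 channel-related lists (circles) and the 2 tested channel subunits (diamonds). Red marks an adjusted p under 0.05. Among the listed genes Prkcb, at 0.98, stands above the other 46, which lie between -0.50 and 0.35.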

How the data were processed

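RNA of 3 superior and 3 inferior pools was measured on Affymetrix mouse genome arrays. Per the submitters' processing notes, the authors used MAS5 to make the deposited linear intensity signals; no version is named there. In them the mean of each array, trimmed by 2% at either end, was 100. MAS5 subtracts mismatch signal, so dim probe sets are noisy, and the number of arrays limits the precision. Names come from the platform annotation, and all 8 member symbols matched RefSeq by gene ID.

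The 64 control probe sets were left out. Signals became log2(signal + 3.2), 3.2 being their 25th percentile, so that changes of dim genes are understated. Probe sets with a mean above the median were tested with limma 3.58.1 (R 4.3.3; lmFit, eBayes with trend and robust variance), superior minus inferior with the pool number as a block, and Benjamini-Hochberg adjustment over 22518 probe sets. The labels do not say that the numbers pair the pools; the pairing comes from the sample names. Deviations from the region means correlated at 0.79, 0.43 and 0.51 between same-numbered arrays of pools 1, 6 and 7, all above the limit of 0.1, though pools 6 and 7 with unlike numbers also reached 0.18 and 0.20. The fit leaves 2 residual degrees of freedom. It was also run on simulated data that had pool effects and equal noise in both regions. The real arrays need not have these, so nothing is read from that run.

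Members, gene lists and marker lists were chosen with earlier results of these data known. Named from each list were all called genes, the 2 largest differences and the brightest gene, each by its brightest tested probe set. List counts at an unadjusted p under 0.05 are from the paired fit unless the pool number is said to be left out. Their share over all tested probe sets is not given for the paired fit, so nothing is read from those counts. Alternatives were the fit without the block, other offsets, filters, scalings and variance model, and leaving out each pool with its partner.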

Additional observations from a re-analysis of the deposited data

How the results depend on the processing

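The paired count of 36 called probe sets, 21 higher and 15 lower, depended on its settings. It was 0 with no replicate block (792 at an unadjusted p under 0.05), 22 with an offset of 1, 1 with no filter, 2 in the top 25% by signal, 0 without trend and robust variance (2225 unadjusted), and from 9 to 231 without a pool. Under 75th percentile scaling it was 38, split 26 to 12. Abcc9 probe set 1435752_s_at stayed higher in all 10 alternatives that could be fitted and passed in 3. Its log2 difference, no longer passing, was 1.71 with no replicate block (limma adjusted p = 1.00), 1.79 with an offset of 1 (0.0501), 1.37 with an offset of 16 (0.0849), 1.71 with no filter (0.211) and 1.71 without trend and robust variance (0.245). Leaving out a pool gave 1.38 to 2.08. In the top 25% by signal it was below the filter. Of 40 alternative values of the other members 8 turned sign, among them Kcnj8, from 0.11 to -0.05 without pool 6. Of 191 list medians 17 moved by more than the SD between pools, and 17 turned sign: 4 of smooth muscle, 3 of other cardiac channels, 2 each of red blood cells, ABCC transporters, anchors, and kinases, and 1 each of endothelium and inward rectifiers. Scaling alternatives were not run for members below the filter. The 8.0 background limits what can be said of Kcnj8, Abcc8 and the dim Abcc9 and Kcnj11 probe sets.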

Other observations

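Marker lists of other cell types, set beside the channel subunits, gave smaller or opposite differences, and 0 of their tested genes passed the paired limma test. In the paired limma fit, genes with an unadjusted p under 0.05 numbered 1 endothelial, 1 red blood cell and 2 neural crest. There were 4 of the second heart field and 3 of endocrine or neuronal cells. As the share of all tested probe sets at that level is not given for this fit, nothing is read from these counts. Of 8 endothelial and endocardial genes 6 had a mean log2 difference above 0 (median 0.03), though for Pecam1 and Tie1 among them the mean linear signal was lower in superior pools. Emcn, an endothelial sialomucin, was at 0.56 ± 0.17 (limma adjusted p = 0.345). Npr3, a natriuretic peptide receptor, was at 0.25 ± 0.15 (limma adjusted p = 0.588) and Tek, the angiopoietin receptor and brightest, at 0.16 ± 0.11 (0.626). Red blood cell genes had 4 of 6 higher with a median of 0.22, their summed signal being 13954 to 22962 in superior and 12560 to 15950 in inferior pools. That median was -0.0049 under quantile normalization and -0.0079 without pool 6. Hbb-y, an embryonic globin and the brightest, was at 0.24 ± 0.10 (limma adjusted p = 0.450) and Epor, the erythropoietin receptor, at 0.24 ± 0.21 (0.713). Neural crest genes had 5 of 6 lower with a median of -0.28, and the homeobox gene Dlx2 was at -0.99 ± 0.20 (limma adjusted p = 0.155), the neurotrophin receptor gene Ngfr at -0.79 ± 0.21 (0.267) and Ets1, the brightest, at -0.20 ± 0.10 (0.477). Second heart field genes had 4 of 6 lower with a median of -0.31, and the growth factor gene Fgf8 was at -1.03 ± 0.17 (limma adjusted p = 0.0932), the T-box gene Tbx1 at -0.55 ± 0.23 (0.441) and Isl1, the brightest, at -0.31 ± 0.08 (0.293). Endocrine and neuronal genes had 4 of 5 lower with a median of -0.36, and Elavl3, a neuronal RNA-binding protein, was at -0.64 ± 0.19 (limma adjusted p = 0.331). Stmn2, a neuronal microtubule regulator and the brightest of that list, lay the other way at 0.21 ± 0.13 (limma adjusted p = 0.606), higher in superior tissue in 3 of 3 pools by 0.01, 0.61 and 0.01.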
